A study of Homo sapiens with 24 samples.

Results

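CYP4Z1, CYP4Z2P, CYP4X1 and CYP4B1 are cytochrome P450 genes of family 4 that lie close together on chromosome 1. They are described here across 8 groups of cultured human breast cancer cells. The genes were taken by symbol, and where a gene had more than 1 probe set of a single gene symbol, the one with the highest mean over all 24 arrays would stand for it. All 4 of 4 were measured, each by 1 such probe set, among 18417 genes in all. The probe sets were thus chosen by mean expression over all arrays, and these means were 5.34 for CYP4Z1, 4.73 for CYP4Z2P, 6.87 for CYP4X1 and 5.36 for CYP4B1 on the log2 scale. All values are log2 expression after RMA, a standard background correction and normalisation for these arrays, so a difference of 1 is a 2-fold change. Tests come from limma, a linear model that shares variance information across genes, and a gene passes at an adjusted p below 0.05. Probe sets differ in how strongly they respond, so a level of one gene is not set against that of another here.

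RNA came from SUM149PT and SUM190PT, 2 lines established from inflammatory breast cancers, an aggressive disease in which tumour cells fill the lymph vessels of the skin. The labels call both lines ER(-), that is without estrogen receptor, and p53 mutant. Each was grown alone as a single cell line and kept for 48 h with vehicle (ethanol and DMSO), 10 nM 17β-estradiol, CG-1521, or both agents together, with 3 arrays in each of the 8 groups from independent experiments. CG-1521, a histone deacetylase inhibitor per the series title, was used at 7.5 µM in SUM149PT, which grew with fetal bovine serum, and at 5 µM in SUM190PT, which was treated without serum. Line, dose and medium therefore cannot be told apart in any comparison between lines. Insulin and hydrocortisone were in the medium of all groups. In bulk RNA such as this, fewer cells of a type and less RNA per cell cannot be told apart.

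P450 enzymes of family 4 are membrane-bound haem proteins that use electrons from NADPH-cytochrome P450 reductase to place a hydroxyl group on fatty acids, usually at or near the far end of the chain, and on eicosanoids such as arachidonic acid. CYP4Z1 encodes a fatty acid hydroxylase known for its restricted expression in the mammary gland and its raised level in many breast carcinomas. CYP4Z2P is a transcribed pseudogene closely related to it. CYP4X1 encodes an enzyme with few established substrates that acts on the endocannabinoid anandamide. CYP4B1 encodes an enzyme best known from lung, which activates pneumotoxic furans and hydroxylates fatty acids. Histone deacetylases strip acetyl marks off histone tails and other proteins, and their inhibitors both raise and lower transcripts.

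In RefSeq on GRCh38.p14 the 4 genes fall within one stretch of chromosome 1. CYP4B1 runs from 46799046 to 46819413, CYP4Z2P from 46843095 to 46900475, CYP4X1 from 46961364 to 47055432 and CYP4Z1 from 47055525 to 47118318. The end of CYP4X1 and the start of CYP4Z1 nearly touch. CYP4A11 lies between CYP4Z2P and CYP4X1, and CYP4A22 follows CYP4Z1. CYP4Z1 and CYP4Z2P are near-identical copies, so how the array divides signal between them is uncertain.

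The start-site windows of these neighbouring genes are shown because 3 of the genes moved together in SUM190PT. RefSeq start sites gave windows for 3 of the 4 genes, CYP4Z1, CYP4X1 and CYP4B1, with 250 bases before and 50 bases from the start. All are read 5′ to 3′ on the plus strand of GRCh38.p14. No window was found for CYP4Z2P, which was among the genes that moved together. The CYP4Z1 start used lies inside the gene, downstream of its first annotated base, and the second CYP4X1 start likewise lies inside CYP4X1. The CYP4Z1 window is chr1:47066981-47067280, those of CYP4X1 are chr1:46961114-46961413 (start 1) and chr1:47023419-47023718 (start 2), and that of CYP4B1 is chr1:46798796-46799095. Capitals mark matches, on either strand, to 3 motifs. AGAACA is the core of elements bound by the glucocorticoid, androgen and progesterone receptors. AGGTCA is that of elements for estrogen receptor and many other nuclear receptors. TATAAA is the TATA box of core promoters.
CYP4Z1: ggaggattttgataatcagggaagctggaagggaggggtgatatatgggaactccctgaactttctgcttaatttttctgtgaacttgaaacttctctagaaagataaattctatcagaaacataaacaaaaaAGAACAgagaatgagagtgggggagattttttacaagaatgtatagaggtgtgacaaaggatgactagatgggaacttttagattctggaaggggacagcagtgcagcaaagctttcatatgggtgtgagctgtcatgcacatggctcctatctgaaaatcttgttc
CYP4X1 start 1: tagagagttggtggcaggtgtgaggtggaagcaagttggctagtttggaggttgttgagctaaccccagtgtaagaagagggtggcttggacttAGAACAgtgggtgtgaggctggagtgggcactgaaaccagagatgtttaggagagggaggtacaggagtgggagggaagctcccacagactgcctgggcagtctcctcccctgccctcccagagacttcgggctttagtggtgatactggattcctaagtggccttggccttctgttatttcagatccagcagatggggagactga
CYP4X1 start 2: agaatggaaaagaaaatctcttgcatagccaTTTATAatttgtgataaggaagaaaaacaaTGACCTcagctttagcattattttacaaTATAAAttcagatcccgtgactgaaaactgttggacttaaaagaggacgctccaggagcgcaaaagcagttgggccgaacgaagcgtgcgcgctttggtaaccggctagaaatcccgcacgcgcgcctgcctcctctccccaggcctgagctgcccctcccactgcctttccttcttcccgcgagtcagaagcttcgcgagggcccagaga
CYP4B1: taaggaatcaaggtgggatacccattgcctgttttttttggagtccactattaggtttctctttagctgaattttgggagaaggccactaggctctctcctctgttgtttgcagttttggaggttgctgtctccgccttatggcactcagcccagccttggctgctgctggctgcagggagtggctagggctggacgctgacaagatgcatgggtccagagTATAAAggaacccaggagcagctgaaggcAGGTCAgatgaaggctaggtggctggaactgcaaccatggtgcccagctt

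CYP4Z1 and the first CYP4X1 start each held AGAACA, at -117 and -156 from the start, and neither held AGGTCA or TATAAA. The second CYP4X1 start held AGGTCA, read as TGACCT, at -189, and TATAAA at -161 and, read as TTTATA, at -219. CYP4B1 held TATAAA at -29, the usual place of a TATA box, and AGGTCA at 1, the start itself. These letters are common: over 35116 RefSeq windows of the same length, 14.8% held AGAACA, 13.8% held AGGTCA and 11.5% held TATAAA. The windows differed more in CpG dinucleotides, the sites of DNA methylation. The CYP4Z1 window had 0, as few as 4.0% of all windows, the first CYP4X1 window 1, the CYP4B1 window 2 and the second CYP4X1 window 17, against a median of 14 over all windows. A match is a description of the sequence and shows no binding.

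The arrays agreed closely within groups, with r across genes of 0.995 to 0.996 for SUM149PT and 0.981 to 0.996 for SUM190PT between arrays of a group. Replicate 3 of SUM190PT differed from its fellows with vehicle and with estradiol. On these arrays 15 DNA replication genes had a median of -1.78 and -1.91 relative to the other arrays of their groups, and the median of the 4 CYP4 genes was 0.56 and 0.58 above them. The CYP4 median of replicate 3 was also above its fellows with CG-1521 (0.54) and with both agents (0.39). There the replication genes were at -0.18 and -0.20. Values without replicate 3 of SUM190PT with vehicle and with estradiol follow the main results in that line. The labels matched the lines: ERBB2, the HER2 receptor, averaged 12.6 in SUM190PT and 7.18 in SUM149PT under vehicle, and the basal keratin KRT5 5.53 and 10.4. Of 13 luminal markers, 12 were lower and 0 higher in SUM149PT than in SUM190PT, where 22.1% of all genes passed as lower. In vehicle-treated SUM190PT the means of 8 fibroblast markers spanned 2.94 to 7.08, of 7 leukocyte markers 2.83 to 6.92 and of 5 endothelial markers 3.34 to 5.86. COL1A1 (7.08), CD68 (6.92) and PECAM1 (5.86) were at the top of these ranges, and PTPRC (2.83) and DCN (2.94) at the bottom, with the endothelial cadherin CDH5 at 4.48.

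The array values carry no detection call. For orientation on the low end of the scale, a list of 8 measured genes of other tissues, such as glucagon (GCG) and the heart myosins MYH6 and MYH7, had means of 2.87 to 5.22 on the SUM149PT vehicle arrays and 2.97 to 5.07 on the SUM190PT arrays with CG-1521. The lowest of them is CSN2, a milk protein gene that breast cells can express. CYP4Z1 and CYP4Z2P in SUM149PT, and in SUM190PT with CG-1521, lay in these ranges and are not shown to be above background. On the SUM149PT arrays with CG-1521 the list had means of 2.91 to 5.29, and with both agents 2.94 to 5.42. CYP4X1 lay within them in those groups (5.25 and 5.18). CYP4B1 lay in range in SUM149PT with vehicle, CG-1521 and both agents (5.20, 5.26 and 5.08). These levels too are not shown to be above background. Differences against all such groups are therefore given on the log2 scale as fitted, with no fold, and are no exact sizes.

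Under vehicle, CYP4Z1, CYP4Z2P and CYP4X1 were far higher in SUM190PT than in SUM149PT, while CYP4B1 differed by a smaller amount that missed the threshold. CYP4Z1 read 8.48, 8.10 and 9.90 on the SUM190PT vehicle arrays and 4.004, 3.71 and 3.81 on those of SUM149PT. The SUM190PT values were all high and more scattered, the third being the highest, and the groups lay far apart. The difference, SUM149PT minus SUM190PT, was -4.99 ± 0.361 (log2, SE, n = 3 per group) (limma, adjusted p = 7.12e-11, with Benjamini-Hochberg adjustment over all genes as throughout).

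CYP4Z2P read 7.65, 6.95 and 7.26 in vehicle-treated SUM190PT and 3.38, 3.46 and 3.72 in SUM149PT. All SUM190PT arrays were again above all SUM149PT arrays, and the difference was -3.77 ± 0.222 (log2, SE; limma, adjusted p = 1.98e-12). CYP4X1 read 8.95, 8.59 and 8.85 in SUM190PT and 6.85, 6.85 and 6.55 in SUM149PT. Its arrays were tight in both lines, and the level in SUM149PT was 4.14-fold lower (limma, log2 difference -2.05 ± 0.185 SE, adjusted p = 2.92e-09). CYP4B1 read 5.44, 5.43 and 6.48 in SUM190PT and 5.43, 4.96 and 5.21 in SUM149PT. Only the third SUM190PT array lay clearly above the others, and the difference of -0.58 missed the threshold (limma, 95% interval -1.10 to -0.06, adjusted p = 0.0625).

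Of the 4 genes, 3 thus passed between the vehicle groups, all lower in SUM149PT. Differences between the lines were common: 46.7% of all genes passed, and 22.1% passed as lower in SUM149PT. With both arrays of SUM190PT replicate 3 without CG-1521 dropped, the differences were -4.45 for CYP4Z1, -3.78 for CYP4Z2P, -2.02 for CYP4X1 and -0.24 for CYP4B1.

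**Figure D1:**
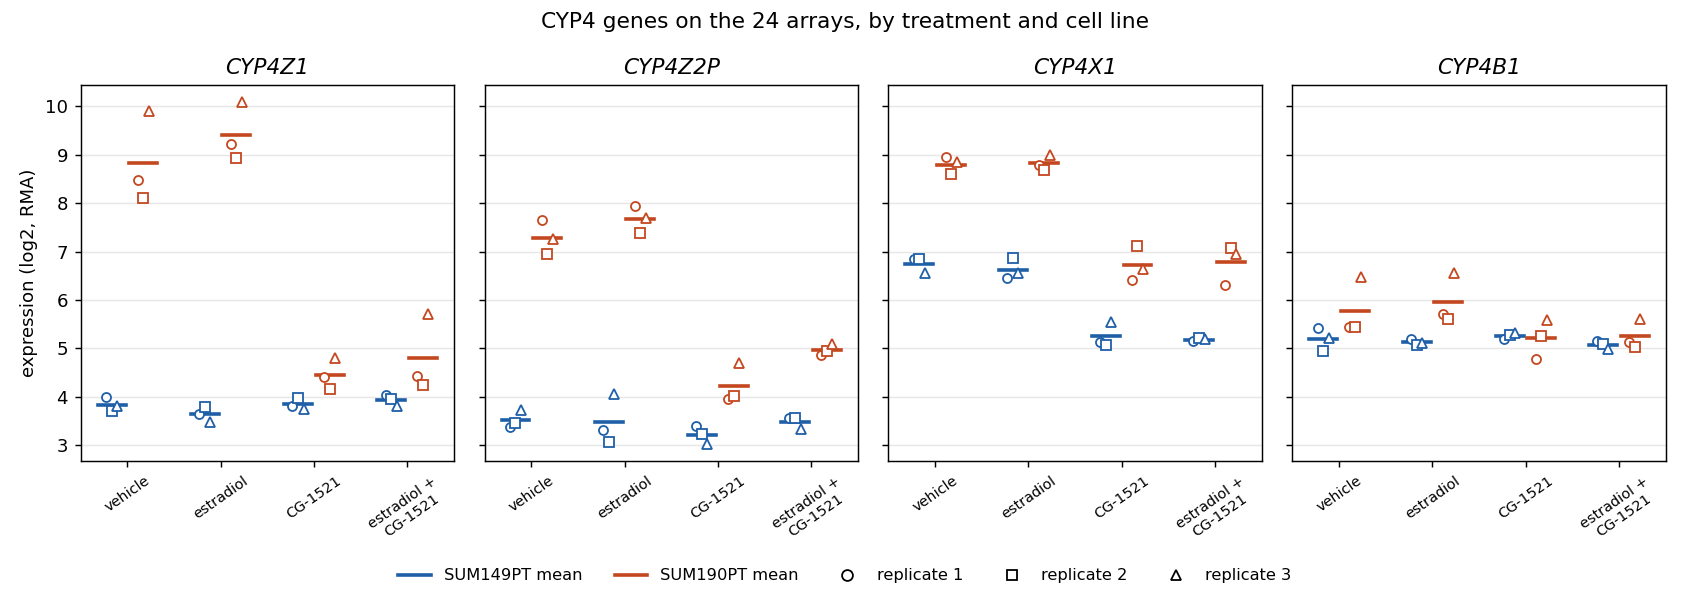
Expression of the 4 CYP4 genes on each of the 24 arrays (log2, RMA) by treatment, in SUM149PT (blue) and SUM190PT (red); symbols are replicates and bars are means of 3 arrays. In SUM190PT the CYP4Z1 bar goes from 8.83 under vehicle to 4.46 with CG-1521, while the SUM149PT bars stay at 3.84 and 3.85.

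CYP4Z1, CYP4Z2P and CYP4X1 fell with CG-1521 in SUM190PT. CYP4Z1 had the most negative log2 difference of the 18417 genes in this fit, and CYP4Z2P and CYP4X1 ranked 8 and 37. With both arrays of SUM190PT replicate 3 without CG-1521 dropped, the ranks of the 3 genes were 3, 10 and 82. CYP4B1, the member at the other end of the gene row, was -0.58 against vehicle and did not pass in this fit. Over all genes 16.6% passed in this comparison and 8.26% passed as lower, beside 3 of the 4 CYP4 genes. The genes were named for description with results of these arrays known, so the adjusted p-values measure size against the spread of the arrays.

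CYP4Z1 read 4.41, 4.17 and 4.80 on the 3 SUM190PT arrays with CG-1521, against 8.48, 8.10 and 9.90 with vehicle. Every treated array lay more than 3 log2 units below every vehicle array. The means were 4.46 ± 0.318 and 8.83 ± 0.949 (SD, n = 3 each), and the difference was -4.37 ± 0.464 (SE; 95% interval -5.37 to -3.36; limma, adjusted p = 9.38e-05). The third vehicle array is the highest of all vehicle arrays, and dropping it, along with its estradiol counterpart, gave a difference of -3.83 (adjusted p = 6.04e-05).

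CYP4Z2P read 3.95, 4.02 and 4.71 with CG-1521 against 7.65, 6.95 and 7.26 with vehicle in SUM190PT. The groups were well apart, with the third treated array somewhat higher than the other two. The difference was -3.06 ± 0.219 (SE; 95% interval -3.54 to -2.59; limma, adjusted p = 1.05e-05), and -3.08 with those same 2 arrays dropped. CYP4X1 read 6.41, 7.12 and 6.64 with CG-1521 against 8.95, 8.59 and 8.85 with vehicle. No treated array came near the vehicle arrays, and the difference was -2.08 ± 0.210 (SE; 95% interval -2.53 to -1.62; limma, adjusted p = 7.07e-05), a 4.22-fold lower level, and -2.05 with those 2 arrays dropped.

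CYP4B1 read 4.78, 5.25 and 5.59 with CG-1521 and 5.44, 5.43 and 6.48 with vehicle in SUM190PT. The groups overlapped, and the difference of -0.58 did not pass (limma, 95% interval -1.26 to 0.11, adjusted p = 0.238). With those same 2 arrays dropped it was -0.23. CYP4B1 did pass with the replicate number as a block (limma, adjusted p = 0.0172), a pairing that these arrays do not bear out across all genes.

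In SUM149PT only CYP4X1 of the 4 genes passed with CG-1521, and it fell. Its arrays read 5.13, 5.08 and 5.54 with CG-1521 against 6.85, 6.85 and 6.55 with vehicle. CYP4X1 on the treated arrays (mean 5.25) is not shown to be above background. The groups were a full log2 unit apart at their nearest arrays, and the difference was -1.50 ± 0.130 (log2, SE; 95% interval -1.78 to -1.22; limma, adjusted p = 2.09e-07). It ranked 192 among the falls in this line, where 34.3% of all genes passed and 19.9% passed as lower, so 1 of 4 genes is close to the background.

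CYP4Z1 in SUM149PT read 3.80, 3.98 and 3.75 with CG-1521, among the vehicle values of 4.004, 3.71 and 3.81. The difference of 0.01 had a 95% interval of -0.22 to 0.23 (limma, adjusted p = 0.971). CYP4Z2P was -0.31 against vehicle (95% interval -0.71 to 0.09, limma, adjusted p = 0.239) and CYP4B1 0.06 (95% interval -0.16 to 0.29, limma, adjusted p = 0.700). How far a fall from the SUM149PT levels of CYP4Z1 (3.84), CYP4Z2P (3.52) and CYP4B1 (5.20) could be measured was not tested.

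The fitted change with CG-1521 differed between the lines for CYP4Z1 and CYP4Z2P. The difference of responses, SUM149PT minus SUM190PT, was 4.37 ± 0.510 for CYP4Z1 (SE; limma, adjusted p = 3.03e-06) and 2.76 ± 0.314 for CYP4Z2P (SE; limma, adjusted p = 2.38e-06). For CYP4X1, which fell in both lines, it was 0.58 (95% interval 0.03 to 1.12; limma, adjusted p = 0.126), and for CYP4B1 0.64 (95% interval -0.10 to 1.38; limma, adjusted p = 0.219). Over all genes 20.6% passed this test, beside 2 of the 4. CYP4Z1 and CYP4Z2P stood at 3.84 and 3.52 in vehicle-treated SUM149PT, and the lowest value of any probe set was 1.698. Falls as large as in SUM190PT (-4.37 and -3.06) thus had no room there. The test therefore cannot tell whether the lines respond alike for these genes. With both arrays of SUM190PT replicate 3 without CG-1521 dropped, the difference was 3.84 for CYP4Z1 and 2.77 for CYP4Z2P. Leaving out the second CG-1521 array of SUM190PT, the highest of its group for CYP4X1, put the CYP4X1 difference at 0.78 (adjusted p = 0.0339).

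With CG-1521 in both lines, the fitted gap in CYP4Z1 between them was small. Neither mean (3.85 in SUM149PT, 4.46 in SUM190PT) is shown to be above background, so the gap is no exact size. SUM149PT was -0.61 against SUM190PT (95% interval -1.36 to 0.14; limma, adjusted p = 0.174), compared with -4.99 under vehicle, and all SUM149PT arrays were still lower. CYP4Z2P (limma, log2 difference -1.01 ± 0.222 SE, adjusted p = 0.000567) and CYP4X1 (limma, log2 difference -1.47 ± 0.185 SE, adjusted p = 5.69e-07) read lower in SUM149PT. The CYP4Z2P means (3.21 in SUM149PT, 4.22 in SUM190PT) and the SUM149PT mean of CYP4X1 (5.25) are not shown to be above background either. CYP4B1 differed by 0.06 (95% interval -0.47 to 0.58; limma, adjusted p = 0.877). Thus 2 of the 4 genes passed, where 47.6% of all genes did. The CYP4Z1 call depends on the fit: its adjusted p was 0.0406 when both arrays of SUM190PT replicate 3 without CG-1521 were dropped.

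Estradiol alone changed none of the 4 genes past the threshold in either line. In SUM190PT, CYP4Z1 read 9.23, 8.93 and 10.09 with estradiol, against 8.48, 8.10 and 9.90 with vehicle. Each estradiol array was above the vehicle array of its own number, and the groups overlapped. The difference was 0.59 (95% interval -0.42 to 1.59; limma, adjusted p = 0.453), and with the replicate number as a block, which these arrays bear out as a pairing, its adjusted p was 0.0857. With those 2 arrays of replicate 3 dropped the difference was 0.79 (limma, adjusted p = 0.299). CYP4Z2P read 7.94, 7.38 and 7.70 with estradiol, a difference of 0.39 (95% interval -0.09 to 0.86; limma, adjusted p = 0.293). CYP4X1 differed by 0.02 (limma, adjusted p = 0.955) and CYP4B1 by 0.18 (limma, adjusted p = 0.760).

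Over all genes, estradiol gave 1 call in SUM190PT (0.00543% of genes), which became 519 with the replicate block. In SUM149PT limma gave 0 calls (0.00% of genes), with 0 of the 4 CYP4 genes and 845 genes at an unadjusted p under 0.05. In that line CYP4Z1 read 3.64, 3.79 and 3.47 with estradiol, CYP4Z2P 3.32, 3.06 and 4.05, CYP4X1 6.46, 6.87 and 6.56, and CYP4B1 5.20, 5.07 and 5.11. All 4 genes overlapped their vehicle values. ESR1, the estrogen receptor alpha gene, averaged 4.76 in SUM149PT and 4.70 in SUM190PT under vehicle, and its target PGR, the progesterone receptor, 3.67 and 3.71.

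With estradiol and CG-1521 together, CYP4Z1, CYP4Z2P and CYP4X1 in SUM190PT were again low. CYP4Z1 read 4.43, 4.24 and 5.70, the third array being more than 1 log2 unit above the others and still far below every vehicle array. Against vehicle the difference was -4.04 ± 0.464 (SE; limma, adjusted p = 0.000192), the most negative of the genes in this fit. CYP4Z2P read 4.86, 4.94 and 5.09, a difference of -2.33 ± 0.219 from vehicle (log2, SE; limma, adjusted p = 5.76e-05). CYP4X1 read 6.31, 7.07 and 6.95, a 4.05-fold lower level (limma, log2 difference -2.02 ± 0.210 SE, adjusted p = 9.94e-05). CYP4B1 read 5.12, 5.02 and 5.60 and was -0.53 against vehicle (limma, adjusted p = 0.326, and 0.0279 with the replicate block). These comparisons use the same vehicle arrays as those of CG-1521 alone. Here 3 of the 4 genes passed without the block, beside 13.4% of all genes. With both arrays of SUM190PT replicate 3 without CG-1521 dropped, the differences were -3.50 for CYP4Z1 (rank 3), -2.34 for CYP4Z2P, -1.99 for CYP4X1 and -0.19 for CYP4B1.

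Against estradiol alone, the combination arrays of SUM190PT were lower in CYP4Z1 (limma, log2 difference -4.62 ± 0.464 SE, adjusted p = 6.00e-05). CYP4Z2P was also lower (limma, log2 difference -2.71 ± 0.219 SE, adjusted p = 1.79e-05) and CYP4X1 4.12-fold lower (limma, log2 difference -2.04 ± 0.210 SE, adjusted p = 6.63e-05). CYP4Z1 again had the most negative difference, with CYP4Z2P at rank 23 and CYP4X1 at rank 90. With the 2 arrays dropped, these differences were -4.29, -2.70 and -1.96, at ranks 4, 46 and 179, and that of CYP4B1 was -0.41. CYP4B1 read 5.12, 5.02 and 5.60 against 5.71, 5.61 and 6.57 with estradiol. Its groups did not overlap, as for 19.2% of all genes in this direction. The difference of -0.71 did not pass (limma, 95% interval -1.40 to -0.03, adjusted p = 0.113), but did with the replicate block (limma, adjusted p = 0.00453). In total 3 of 4 genes passed without the block, beside 25.7% of all genes.

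With estradiol added to CG-1521 in SUM190PT, the CYP4Z2P arrays read somewhat higher, a difference that did not pass. Neither mean (4.96 with both agents, 4.22 with CG-1521 alone) is shown to be above background. CYP4Z2P is given here array by array. It read 4.86, 4.94 and 5.09 against 3.95, 4.02 and 4.71, and the groups did not overlap, as for 7.66% of all genes in this direction. The difference of 0.74 (95% interval 0.26 to 1.21) had an unadjusted p of 0.00519 and did not pass after adjustment (limma, adjusted p = 0.918, and 0.817 with the replicate block). CYP4Z1 differed by 0.33 (95% interval -0.67 to 1.34; limma, adjusted p = 1.00). None of the 18417 genes passed in this comparison (0.00%), while 889 genes had an unadjusted p under 0.05, CYP4Z2P the only one of the 4.

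In SUM149PT the combination gave CYP4X1 values of 5.15, 5.22 and 5.19, the tightest of its groups. They were lower than with vehicle (limma, log2 difference -1.57 ± 0.130 SE, adjusted p = 1.31e-07) and than with estradiol alone (limma, log2 difference -1.45 ± 0.130 SE, adjusted p = 2.95e-07). Against vehicle 1 of the 4 genes passed, beside 37.2% of all genes. Against estradiol 2 of the 4 passed, beside 36.9% of all genes. The other was CYP4Z1, which read 4.04, 3.96 and 3.80 against 3.64, 3.79 and 3.47, all within the low values of this line. That difference of 0.30 ± 0.105 (SE; limma, adjusted p = 0.0372) did not pass when any of 4 single arrays was left out, nor under 3 other ways of fitting or scaling.

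CYP4Z2P read 3.57, 3.57 and 3.33 and CYP4B1 5.16, 5.08 and 4.99 in the SUM149PT combination group. Against CG-1521 alone 0 of the 4 genes passed in limma in this line, and 0 had an unadjusted p under 0.05 (0.00% and 1156 of all genes). The test of whether the effect of CG-1521 depended on estradiol gave 0 of the 4 genes in either line, and 0 at an unadjusted p under 0.05. Over all genes it gave 0.00% in SUM149PT, with 1046 at an unadjusted p under 0.05, and 0.516% in SUM190PT.

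**Figure D2:**
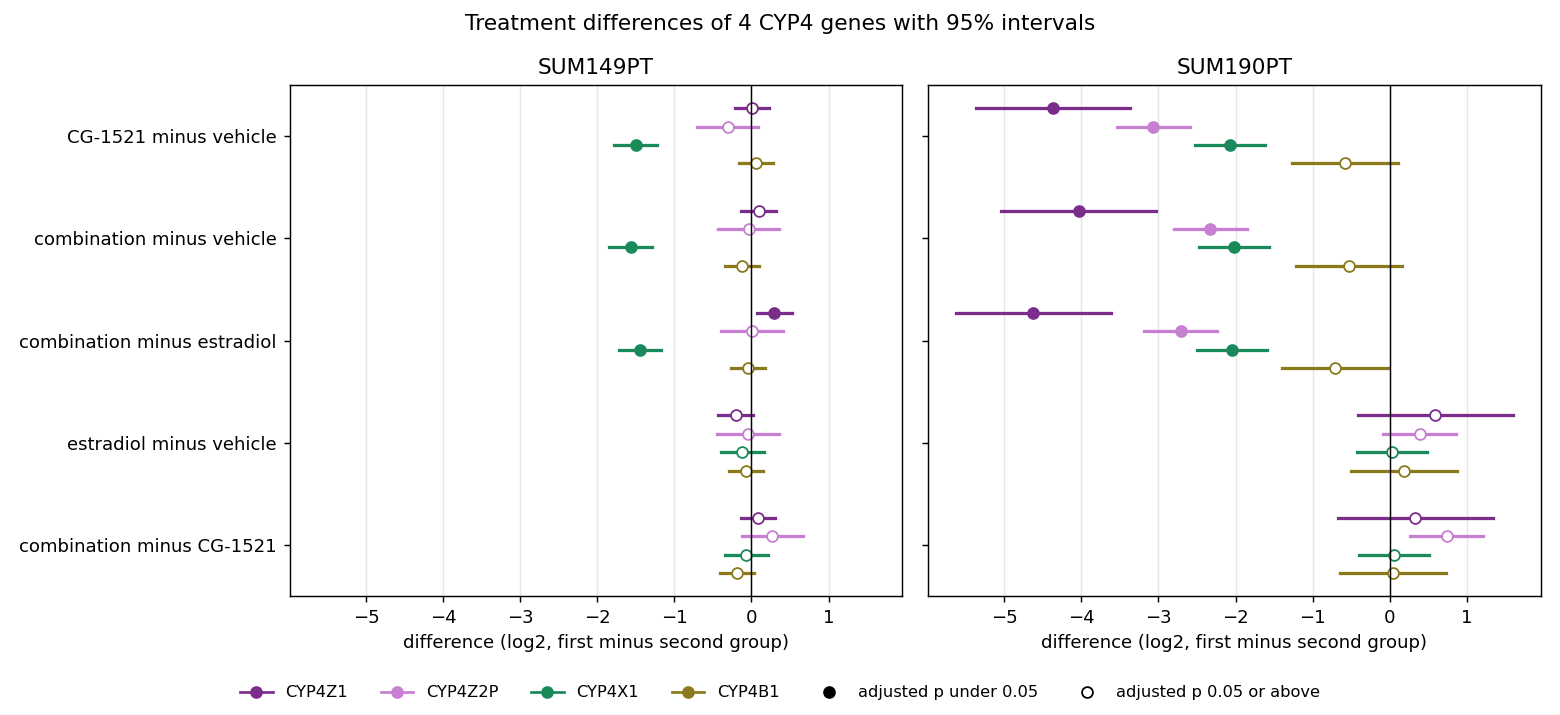
Differences between treatments (log2, first minus second group, from limma) for the 4 CYP4 genes in each line, with 95% intervals; filled points have an adjusted p under 0.05. In SUM190PT the 3 comparisons that add CG-1521 are filled for CYP4Z1, CYP4Z2P and CYP4X1, from -4.62 to -2.02, and in SUM149PT for CYP4X1, from -1.57 to -1.45, and once for CYP4Z1, at 0.30.

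Ordered by mean, the groups of CYP4Z1 ran from SUM190PT estradiol (9.42 ± 0.602, SD, n = 3) and vehicle (8.83 ± 0.949) to SUM190PT combination (4.79 ± 0.793) and CG-1521 (4.46 ± 0.318). The 4 SUM149PT groups followed, from 3.93 ± 0.120 to 3.64 ± 0.159. Within the high pair, within the SUM190PT groups with CG-1521 and among the SUM149PT groups, neighbours overlapped. The main step lay between the SUM190PT groups without and with CG-1521, and a small gap parted the lowest SUM190PT array (4.17) from the highest SUM149PT array (4.04). CYP4Z2P had the same order of blocks, from 7.67 ± 0.282 with estradiol in SUM190PT down to 3.21 ± 0.187 with CG-1521 in SUM149PT. The lowest array of its SUM190PT combination group (mean 4.96 ± 0.118) was at 4.86 and the highest with CG-1521 alone (mean 4.22 ± 0.418) at 4.71, a difference between groups that did not pass.

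CYP4X1 had 3 tiers. SUM190PT without CG-1521 stood at 8.82 ± 0.157 (estradiol) and 8.80 ± 0.185 (vehicle). The middle tier joined SUM190PT with CG-1521 to SUM149PT without it, from 6.78 ± 0.408 to 6.63 ± 0.215, and its 4 groups overlapped. The low tier was SUM149PT with CG-1521, at 5.25 ± 0.252 and 5.18 ± 0.0357. CYP4B1 had no such tiers. Its 8 means ran from 5.96 ± 0.527 to 5.08 ± 0.0882, and neighbours overlapped except SUM190PT vehicle (lowest array 5.43) and SUM149PT CG-1521 (highest array 5.32).

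The third SUM190PT array was the highest of its group in all 4 groups for CYP4Z1, by 0.51 to 1.61 over the mean of the other two, and in all 4 for CYP4B1, by 0.53 to 1.04. For CYP4Z2P it was highest in 2 of the 4 groups and for CYP4X1 in 1. Across the 12 SUM190PT arrays CYP4Z1 correlated with CYP4Z2P at r = 0.961 and with CYP4X1 at 0.952, and CYP4Z2P with CYP4X1 at 0.953. CYP4B1 correlated with CYP4Z1 at 0.791, with CYP4Z2P at 0.671 and with CYP4X1 at 0.679. These points share their treatment groups, so the values describe these arrays. In SUM149PT the r of CYP4X1 was -0.45 with CYP4Z1, 0.16 with CYP4Z2P and -0.010 with CYP4B1.

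Genes around the cluster moved in mixed directions. Of 14 other measured genes within 300 kb of the cluster, 2 rose and 2 fell with CG-1521 in SUM190PT, over a range of -1.33 to 0.53, and 6 rose and 1 fell in SUM149PT, over -1.40 to 1.09. Over all genes 16.6% passed in SUM190PT, 8.26% as lower, and 34.3% in SUM149PT, 19.9% as lower. CYP4A11 and CYP4A22, fatty acid hydroxylases of liver and kidney that lie between and beside the members, were 0.11 and 0.10 against vehicle in SUM190PT and -0.14 and -0.06 in SUM149PT, none of them passing. PDZK1IP1, a small membrane protein gene beyond CYP4A22, fell in SUM190PT (-1.03) and rose in SUM149PT (0.55). STIL, a centriole duplication gene, fell in SUM149PT (-1.40) and was -1.33 without passing in SUM190PT. MOB3C, a kinase adaptor gene on the other side, rose in both lines, by 0.53 in SUM190PT and 1.09 in SUM149PT. No test of the difference between the members and their neighbours was made.

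**Figure D3:**
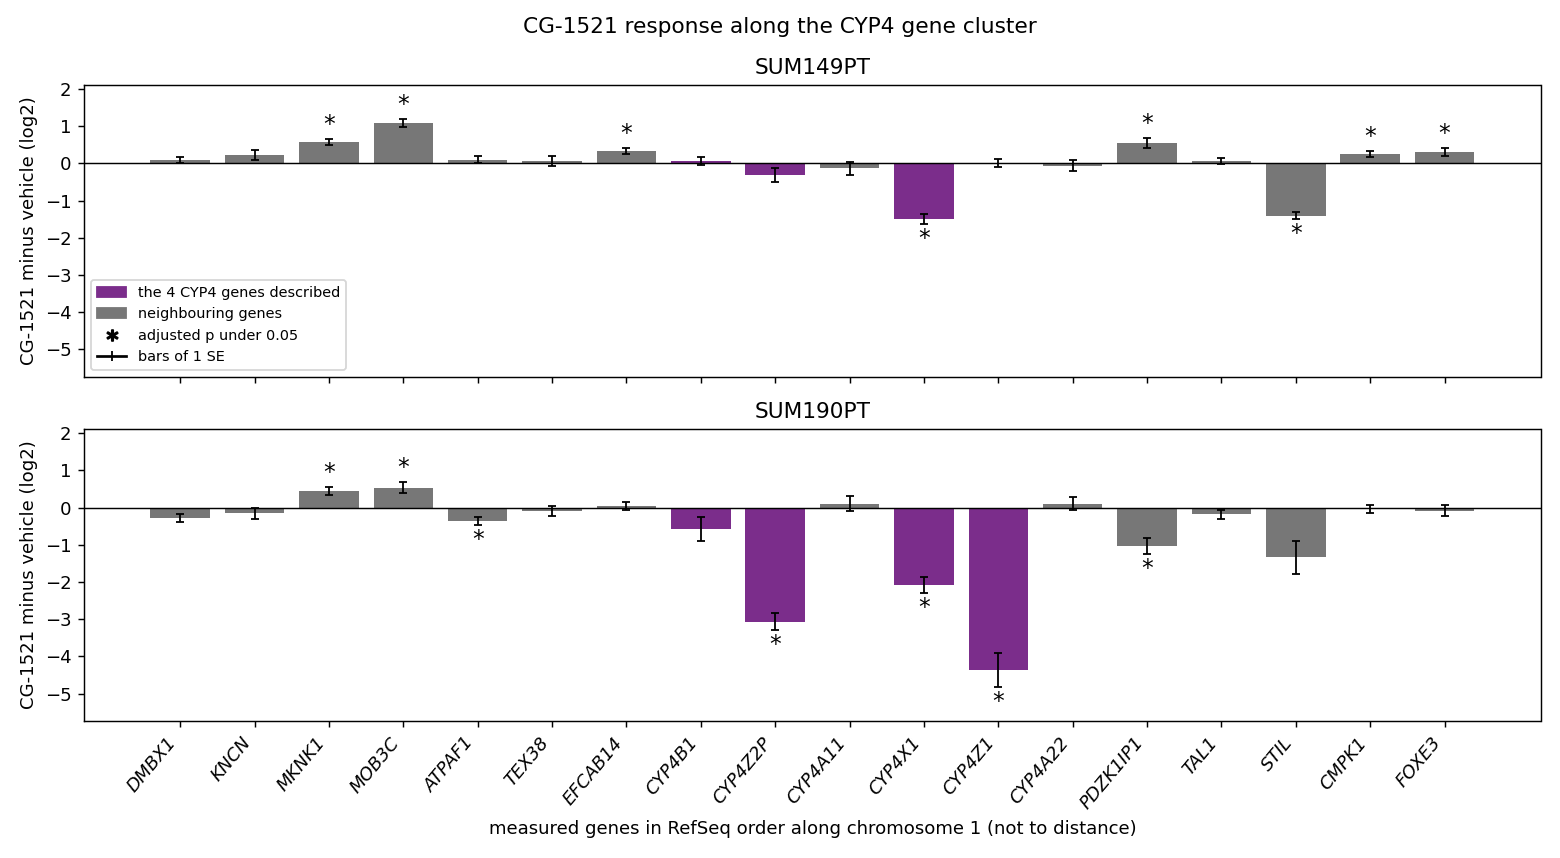
CG-1521 minus vehicle (log2, with bars of 1 SE) for the measured genes in their order along chromosome 1, not to distance, in SUM149PT (top) and SUM190PT (bottom); purple marks the 4 CYP4 genes described and asterisks an adjusted p under 0.05. The 3 deep bars in SUM190PT are CYP4Z2P (-3.06), CYP4X1 (-2.08) and CYP4Z1 (-4.37), and CYP4A11 between them is at 0.11.

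Of 9 other measured genes of the CYP4 family, 1 rose and 0 fell in SUM190PT (median 0.10, against -0.05 for all genes), and 4 rose and 0 fell in SUM149PT (median 0.29, against -0.00). Over all genes 8.26% passed as lower in SUM190PT and 19.9% in SUM149PT, so 0 of 9 falls is close to the background. In either direction 16.6% of all genes passed in SUM190PT, beside 1 of the 9, and 34.3% in SUM149PT, beside 4 of the 9. CYP4F11, a hydroxylase of vitamin K and long-chain fatty acids, rose in both lines, from 6.51 to 9.26 in SUM149PT and from 6.11 to 8.38 in SUM190PT, differences of 2.75 and 2.27. CYP4F3, which inactivates leukotriene B4, rose in SUM149PT by 2.04, CYP4F12 by 0.98 and CYP4V2, the ocular fatty acid hydroxylase, by 0.47. Under vehicle 3 of the 9 were higher and 1 lower in SUM149PT than in SUM190PT, where 46.7% of all genes passed in either direction.

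**Figure D4:**
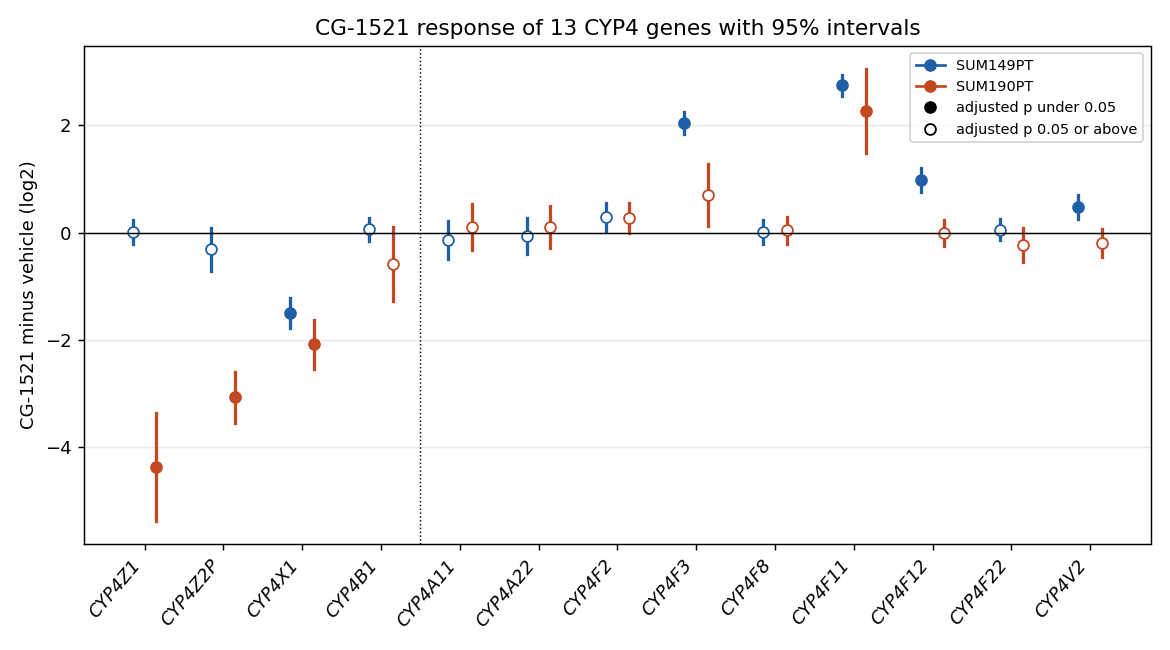
CG-1521 minus vehicle (log2, with 95% intervals) for 13 CYP4 genes in SUM149PT (blue) and SUM190PT (red); filled points have an adjusted p under 0.05, and the dotted line parts the 4 genes described from 9 others. Filled points below 0 are CYP4Z1 (-4.37), CYP4Z2P (-3.06) and CYP4X1 (-2.08 and -1.50), and those above 0 are led by CYP4F11 (2.75 and 2.27).

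The other genes of P450 chemistry changed in mixed directions with CG-1521, where 16.6% of all genes passed in SUM190PT and 34.3% in SUM149PT. Of 5 measured electron donors and partners, CYB5A, the cytochrome b5 that supports P450 reactions, fell in SUM190PT (-0.93) and was the only one to pass there. Dropping the 2 arrays of replicate 3 gave 0 rises and 2 falls among the 5 in SUM190PT. POR, the reductase all microsomal P450 enzymes depend on, was 0.20 in SUM190PT without passing and rose by 0.42 in SUM149PT. There 3 of the 5 passed, beside 34.3% of all genes: PGRMC2, a haem-binding membrane protein gene, also rose by 0.42, and CYB5B, the mitochondrial cytochrome b5, fell (-0.29). Of 22 P450 enzymes of other families, 0 rose and 2 fell in SUM190PT: CYP51A1, the sterol demethylase (-0.66), and CYP2J2, an arachidonate epoxygenase (-0.47). In SUM149PT 2 rose and 2 fell, with CYP39A1 (1.13), an oxysterol hydroxylase, and CYP51A1 (1.11) ahead.

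Among 17 genes of arachidonate metabolism, the substrate side of this family, 1 rose and 4 fell in SUM190PT (median -0.25). These counts were 1 and 5 with the 2 arrays of replicate 3 dropped (median -0.18). GPR75, a receptor for the arachidonate product 20-HETE, rose by 1.07. EPHX2, the soluble epoxide hydrolase, was at -1.03, PLA2G4A, the phospholipase that frees arachidonate, at -0.78, and FAAH, which degrades anandamide, at -0.70, all passing. In SUM149PT 2 rose and 4 fell (median -0.03), with PTGES, a prostaglandin E synthase, at -0.86 and EPHX1 at 0.71. In either direction 16.6% of all genes passed in SUM190PT and 34.3% in SUM149PT.

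Of 13 genes of the PPAR fatty acid receptors and their targets, 1 rose and 4 fell in SUM190PT (median -0.09), and 0 rose and 5 fell with the 2 arrays of replicate 3 dropped (median 0.18). The coactivator PPARGC1A fell from 8.05 to 6.13 (-1.92). The lipid droplet gene PLIN2 rose by 1.45, a call lost with the 2 arrays of replicate 3 dropped. In SUM149PT 4 rose and 4 fell (median 0.04), led by PPARG at -0.83. PPARA was 0.34 in SUM190PT without passing and rose by 0.45 in SUM149PT. Of 10 measured steroid receptors and glucocorticoid targets, 2 rose and 2 fell in SUM190PT (median -0.14) and 0 rose and 4 fell in SUM149PT (median -0.21). The SUM190PT counts were 1 and 2 with the 2 arrays of replicate 3 dropped (median -0.08). The glucocorticoid receptor gene NR3C1 rose in SUM190PT (0.41) and fell in SUM149PT (-0.71). TSC22D3, a glucocorticoid target, fell in SUM190PT by 1.35. Beside both lists, 16.6% of all genes passed in SUM190PT and 34.3% in SUM149PT.

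Markers of luminal breast cells moved beside the members in SUM190PT. Of 13, 1 rose and 8 fell with CG-1521 (median -0.52), or 0 and 7 with the 2 arrays of replicate 3 dropped (median -0.54), and 4 rose and 1 fell in SUM149PT (median 0.01). The transcription factors TFAP2B (-2.47), SPDEF (-1.84), GATA3 (-1.46) and FOXA1 (-1.04) were the largest falls among them in SUM190PT. Of 6 measured basal markers 2 rose and 1 fell in SUM190PT (median 0.35): the laminin gene LAMB3 (1.21) and the growth factor receptor EGFR (1.07) rose and the cadherin CDH3 fell (-0.85). Dropping the 2 arrays of replicate 3 gave 3 rises and 1 fall (median 0.51). In SUM149PT 2 basal markers rose and 1 fell (median 0.14), led by LAMB3 (1.75). Among all genes 16.6% passed in SUM190PT, 8.26% as lower, and 34.3% in SUM149PT, 19.9% as lower. The part of luminal and basal markers in the falls of CYP4Z1, CYP4Z2P and CYP4X1 was not tested.

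For CG-1521 against vehicle, 0 fibroblast or endothelial markers passed in SUM190PT, the smallest adjusted p in limma being 0.0927 for PECAM1. For the combination against estradiol in that line, PECAM1 fell (-1.26; limma, adjusted p = 0.00933), and the fibroblast markers COL1A1 (0.59; limma, adjusted p = 0.0188) and THY1 (0.37; limma, adjusted p = 0.0458) rose. Their part in the differences of the CYP4 genes was not tested. Of 7 leukocyte markers 1 rose with CG-1521 against vehicle in SUM190PT, CD68 (1.91), a lysosomal protein gene. In SUM149PT 0 fibroblast markers rose and 2 fell, 1 leukocyte marker rose and 1 fell, and 0 endothelial markers passed. The 15 DNA replication genes gave 1 fall in SUM190PT (median -0.94), which became 15 falls with both arrays of replicate 3 without CG-1521 dropped (median -1.50), and 15 falls in SUM149PT (median -1.40). For CG-1521 against vehicle, 16.6% of all genes passed in SUM190PT, 8.26% as lower, and 34.3% in SUM149PT, 19.9% as lower. For the combination against estradiol in SUM190PT, 25.7% of all genes passed.

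The genes whose arrays followed the members most closely over the 12 arrays of a line were as follows, with no test. For CYP4Z1 in SUM190PT they were CD82 (r = 0.991), SYT13 (0.990), SCGB2A2 (0.984) and PLA2R1 (0.983). SCGB2A2, the secretoglobin mammaglobin A, is a breast marker and was -2.76 with CG-1521 against vehicle in SUM190PT. For CYP4Z2P they were TFAP2B (0.986), MADD (0.984), MUCL1 (0.983), a small breast mucin gene, and GASK1B (0.978). For CYP4X1 they were TCAF1, PRODH, ERMP1 and LRIG1 (0.994, 0.994, 0.993 and 0.993) in SUM190PT, and DENND2B, CKS1B, NUP54 and PRR11 (0.988, 0.988, 0.987 and 0.987) in SUM149PT. Of these, LRIG1, a negative regulator of ERBB receptors, passed as lower with CG-1521 in both lines (-1.70 in SUM190PT and -1.77 in SUM149PT). The points share treatment groups, so any gene with strong treatment differences can come out high.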

How the data were processed

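RNA of 24 cultures was amplified, biotin-labelled and hybridised to Affymetrix Human Gene 1.0 ST arrays, per the labels. The authors made the deposited log2 values with RMA in Affymetrix Expression Console, per the submitters' processing notes, which give no versions. RMA subtracts background, quantile-normalises and summarises probes. Whether both lines were normalised together is not given in the sources used here. Quantile normalisation can hide a shift common to all genes. The 33297 probe sets ran from 1.698 to 14.463, and 0 columns were unused. The annotation gave 19460 of them a single symbol, 1754 several and 12083 none. Of the first, 19429 matched a RefSeq gene. The brightest of a gene's probe sets by mean stood for each of 769 genes with several, which gave 18417 genes, with no filter on low values.

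Groups were compared with limma 3.58.1 (R 4.3.3, statmod 1.5.0), two-sided, over the 12 arrays of a line for 12 contrasts and over all 24 for 3 contrasts between lines. P-values of each contrast were adjusted over all genes (Benjamini-Hochberg) and called under 0.05. The script was tested on simulated data. Rises and falls of listed genes mean a pass in that fit. Tables and figures used Python 3.11.15, pandas 2.3.3, numpy 2.4.6 and matplotlib 3.10.9. The number of arrays limits the precision.

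The 4 genes and 14 gene lists were chosen with earlier results of these data known. The rule for names took the 4 genes, up to 4 passing genes per list and contrast by size, the always looked-up NR3C1, PGR, ESR1, POR, CYP4A11, CYP4A22, PPARA and PPARG, and the 4 genes most correlated with a member over the 12 arrays of a line in which it passed. ERBB2 and KRT5 were named as checks of the line labels. Other names (such as PTPRC, DCN, CDH5, GCG, MYH6, MYH7 and CSN2) were given after their values were seen. Some listed genes were not analysed here.

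Whether replicate numbers pair arrays was checked from the correlation, across genes, of deviations from group means. In SUM190PT, estradiol against vehicle (0.443, 0.229 and 0.729) and combination against CG-1521 (0.518, 0.434 and 0.502) alone had all 3 pairs over 0.1. Other settings tried were array weights, a trended robust variance, median centring, another quantile normalisation, a fit of all 24 arrays or of the groups compared alone, the replicate block, the mean of a gene's probe sets, removal of the dimmest 50% of genes, of each array in turn, and of replicate 3 of SUM190PT with vehicle and with estradiol.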

Additional observations from a re-analysis of the deposited data

Results flagged for a closer look

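CYP4Z1 and CYP4Z2P drew attention because their fitted change with CG-1521 differed between the lines in a test of the difference itself. The response in SUM149PT minus that in SUM190PT was 4.37 ± 0.510 for CYP4Z1 (log2, SE; limma, adjusted p = 3.03e-06). All 3 treated SUM190PT arrays lay below all 3 vehicle arrays, while the SUM149PT groups overlapped. For CYP4Z2P the difference was 2.76 ± 0.314 (log2, SE; limma, adjusted p = 2.38e-06), with the same picture on the arrays. Before treatment the levels in SUM149PT were 3.84 and 3.52, against 8.83 and 7.29 in SUM190PT. The SUM149PT levels are not shown to be above background, and the lowest value of any probe set was 1.698. Falls as large as in SUM190PT (-4.37 and -3.06) had no room there, so the test cannot tell whether the lines respond alike. How far a smaller fall could be measured in SUM149PT was not tested. Dose and medium differed with the line and cannot be told apart from it.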

How the results depend on the processing

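The falls of CYP4Z1, CYP4Z2P and CYP4X1 with CG-1521 in SUM190PT, and of CYP4X1 in SUM149PT, kept their direction and passed wherever they were tested: across settings they were -4.73 to -3.83, -3.31 to -2.88, -2.27 to -1.92 and -1.64 to -1.41. Of the values of single genes compared, 298 of the settings other than leaving out single arrays kept direction and call, 3 lost the call, 7 gained it and 4 changed sign, and with single arrays left out 230, 4, 3 and 9 did.

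Most changes touch small values. CYP4X1 for estradiol against vehicle in SUM190PT (0.02) was -0.12 with another quantile normalisation and -0.038 when replicate 3 of SUM190PT with vehicle and with estradiol was dropped. CYP4B1 between lines under CG-1521 (0.06) was -0.078 with that normalisation and -0.047 with median centring. With single arrays left out these ran from -0.077 to 0.10 and from -0.16 to 0.25. CYP4Z1 and CYP4B1 with CG-1521 in SUM149PT ran from -0.062 to 0.089 and from -0.058 to 0.18, CYP4B1 with estradiol in SUM190PT from -0.12 to 0.53, and CYP4Z1 for the combination against CG-1521 in SUM190PT from -0.12 to 0.61.

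For the combination against estradiol in SUM149PT, 1 of the 4 genes passed in place of 2 with all 24 arrays in one fit, with quantile normalisation, with median centring and with the dimmest genes left out, and 1 to 2 passed with single arrays left out. CYP4Z1 there had an adjusted p of 0.0194 to 0.609 over the alternatives. Leaving out the dimmest 50% of genes removed CYP4Z1, CYP4Z2P and CYP4B1 from testing, so 1 of the 4 passed for CG-1521 and for the combination against vehicle, for the combination against estradiol (all in SUM190PT), between lines under vehicle and between lines under CG-1521, and 0 for the difference of responses. With single arrays left out, 2 to 3 genes passed for the difference of responses and 3 to 4 between lines under vehicle, where leaving out the first or second SUM190PT vehicle array gave CYP4B1 an adjusted p of 0.0281 and 0.0293. CYP4B1 also passed there with quantile normalisation (0.0429), and for the combination against estradiol in SUM190PT with all 24 arrays in one fit (0.0292). CYP4Z1 between lines under CG-1521 had an adjusted p of 0.00777 with only the groups compared.

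The replicate block changed no call of the 4 genes for the pairs its check bears out. For pairs that this check across all genes did not bear out, CYP4B1 in SUM190PT passed under the block. Its adjusted p in limma was 0.0172 for CG-1521 against vehicle, 0.0279 for combination against vehicle and 0.00453 for combination against estradiol. This made 4 of 4 genes. Replicate 3 was the highest array for CYP4B1 in all 4 SUM190PT groups, so this gene had a pattern by replicate number. The count of all genes in SUM190PT moved by more than 1.5 times: 3053 for CG-1521 against vehicle (1567 to 5070 over the alternatives), 2466 for the combination against vehicle (1252 to 4242), 4732 for the combination against estradiol (2605 to 7203), 1 for estradiol (0 to 3079, and 519 with the block), 0 for the combination against CG-1521 (0 to 7) and 95 for the interaction (0 to 2540). Averaging a gene's probe sets changes nothing for these 4 genes, which have 1 each. The cause of each change was not tested, apart from the genes removed as dim.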
